A study of Homo sapiens with 12 samples.

Results

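The genes described here are 38 protein-coding HOX genes of the human HOXA, HOXB, HOXC and HOXD clusters, taken from the 58302 genes of the count table by symbol. HOX genes encode homeodomain transcription factors that give cells their position along the body axis. The number in a name is the paralog group, which is shared between clusters: low numbers lie at the 3′ end of a cluster and are used towards the head, high numbers lie at the 5′ end and are used towards the tail and the limb tips. Their on or off state is held in large part by Polycomb and Trithorax proteins, and bone morphogenetic proteins (BMPs), which signal through SMAD1/5, are among the signals that act on them in the embryo.

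The cells were MIB1-iKO cells, a derivative of the lung cancer line NCIH838 grown from single-cell clones, which carries doxycycline (Dox)-inducible Cas9 and a guide RNA against MIB1, the E3 ubiquitin ligase Mind bomb 1. Every well spent 3 days in 50 nM LDN, an inhibitor of BMP type I receptors, plus 0.5 µg/mL Dox in the MIB1 KO groups and no Dox in the MIB1 WT groups, and all 4 groups then received 10 ng/mL BMP4 for 24 h, together with LDN again at 50 nM (BMP-off) or with DMSO in place of LDN (BMP-on). There were 3 RNA-seq libraries in each of WT BMP-off, WT BMP-on, KO BMP-off and KO BMP-on. All KO libraries and no WT library had Dox, so effects of Dox or of Cas9 cutting and of MIB1 loss cannot be told apart, and because nothing says that the replicates were separate cultures, p-values measure the spread between these libraries only.

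The libraries held 19124010 to 29498000 counts, of which 4577 to 6858 per library fell on these HOX genes. MIB1 itself was at 31.03 to 34.38 CPM (counts scaled by library size) in the KO libraries and at 143.6 to 175.6 CPM in the WT libraries, and all 9 tested genes of a list of 10 direct BMP targets, such as ID1, SMAD6 and BAMBI, rose with BMP-on in WT and in KO cells. The level of a gene against its GC content differed between libraries, with a Spearman correlation across genes from -0.60 in KO BMP-off replicate 2 to 0.59 in KO BMP-off replicate 3. Keratin 18 (KRT18) was at 71.1 to 85.4 RPKM (reads scaled by gene length and library size) and EPCAM at 2.53 to 5.08 RPKM, whereas the lung lineage genes NKX2-1, SFTPB, SFTPC and SCGB1A1 stayed at or below 0.0745 RPKM, NAPSA, the other lung lineage gene of the list, was at 0.168 to 0.685 RPKM and the leukocyte gene PTPRC was listed at 0. In the response of KO cells to BMP, the 4 fibroblast markers together went from 1.93 to 3.09 RPKM in BMP-off to 5.37 to 6.52 RPKM in BMP-on, with COL1A1 and PDGFRB past the test and COL3A1 and DCN at or near 0. KRT8 rose and EPCAM fell in that response, and EPCAM fell in WT cells too (-0.56 ± 0.11 on the log2 scale, edgeR adjusted p = 0.00794). The 3 endothelial markers together went from 0.160 to 0.263 RPKM in KO BMP-off to 0.0742 to 0.104 RPKM in KO BMP-on, with CDH5 alone past the test (adjusted p = 0.0316). The part of these genes in the HOX results was not tested.

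Levels between HOX genes were compared on the authors' RPKM scale, which divides by gene length. The sum over the 38 members was split between all 4 clusters. HOXC held a median of 38.9% of the summed HOX RPKM over the 12 libraries, HOXB 25.2%, HOXD 18.8% and HOXA 17.3%. With CPM per kilobase of merged exons in place of RPKM, the mean share of HOXB was 27.2%, that of HOXA 17.1% and that of HOXD 17.02%, so the last pair changed places. By paralog group, group 10 had the largest summed level, with a median of 31.6 RPKM, followed by group 11 with 13.9 RPKM, group 7 with 13.7 RPKM, group 9 with 9.73 RPKM and group 13 with 9.44 RPKM. Groups 11 and 7 overlapped across libraries and had no fixed order, while group 12 reached no more than 0.0937 RPKM in any library.

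Within this total, 6 of the 38 genes had a mean of at least 5 RPKM and 21 a mean of at least 1 RPKM. HOXC10, a gene of hindlimb and lumbar motor neuron patterning, stood highest in the line. It was at 16.8, 17.8 and 17.8 RPKM in WT BMP-off, at 19.1, 17.4 and 18.2 in WT BMP-on, at 18.02, 18.6 and 16.7 in KO BMP-off and at 17.8, 17.97 and 16.7 in KO BMP-on. The lowest HOXC10 library lay above the highest library of every other HOX gene, and the 4 groups overlapped.

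HOXB7, which lies mid-cluster and acts in the trunk, came second on the RPKM scale. Its levels were 15.3, 13.7 and 12.3 RPKM in WT BMP-off, 13.6, 13.8 and 13.4 in WT BMP-on, 13.1, 13.03 and 13.8 in KO BMP-off, and 15.2, 13.5 and 15.02 in KO BMP-on. These groups overlapped too, and HOXB7 overlapped across libraries with the next gene in the order, HOXD10, at 8.59 to 13.5 RPKM. HOXC13 spanned 4.84 to 13.2 RPKM, HOXD11 5.36 to 8.63 RPKM and HOXC8, a gene of the thoracic axis, 5.83 to 7.24 RPKM. Each of these overlapped with its neighbours in the order, but the lowest HOXC8 library lay above the highest library of HOXA11, at 3.58 to 4.98 RPKM.

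The most abundant HOXA genes were HOXA11, which patterns the forearm and kidney, HOXA5, which is needed for lung development, and HOXA10, whose values stand with the genes that changed in KO cells. HOXA11 stood at 4.09, 3.58 and 4.12 RPKM in WT BMP-off, 4.56, 4.56 and 3.86 in WT BMP-on, 4.40, 4.27 and 4.78 in KO BMP-off and 4.52, 4.98 and 4.03 in KO BMP-on. KO BMP-off lay above WT BMP-off without passing the test (adjusted p = 0.577), and the other groups overlapped. HOXA5 was at 2.98, 3.00 and 3.59 RPKM in WT BMP-off, 3.41, 3.88 and 3.45 in WT BMP-on, 3.50, 3.45 and 3.14 in KO BMP-off and 4.08, 4.13 and 3.57 in KO BMP-on. The KO BMP-on libraries of HOXA5 were all above the KO BMP-off ones, but its response in KO cells (log2 fold change 0.26 ± 0.11 SE, adjusted p = 0.113) did not pass the test. HOXC8 was at 6.05, 6.19 and 6.54 RPKM in WT BMP-off, 6.19, 6.10 and 5.83 in WT BMP-on, 6.82, 6.04 and 6.36 in KO BMP-off and 7.24, 6.87 and 6.03 in KO BMP-on, with overlapping groups. HOXD9 was at 1.77, 1.86 and 2.21 RPKM in WT BMP-off, 2.29, 2.38 and 2.28 in WT BMP-on, 1.67, 2.20 and 2.45 in KO BMP-off and 2.48, 2.91 and 2.54 in KO BMP-on, so BMP-on lay above BMP-off in both backgrounds without passing the test (adjusted p = 0.399 in WT and 0.0774 in KO). With a correction for GC content its log2 fold change went from 0.28 to 0.16 in WT cells and from 0.37 to 0.02 in KO cells (adjusted p = 0.606 and 0.955).

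At the low end, HOXB1 had no count in any library, and HOXD1, HOXD3 and HOXD4 had at most 1 count per library. The 3′ part of HOXD was therefore at or near 0 while HOXD8 to HOXD11 and HOXD13 were counted in every library. HOXA6, HOXA7, HOXC12 and HOXD12 also stayed too low for the filter on counts, at no more than 12 counts per library, so 8 of the 38 members were not tested and 30 were: 8 HOXA, 9 HOXB, 8 HOXC and 5 HOXD genes. The plot of levels by cluster and paralog group gives all 38.

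**Figure D1:**
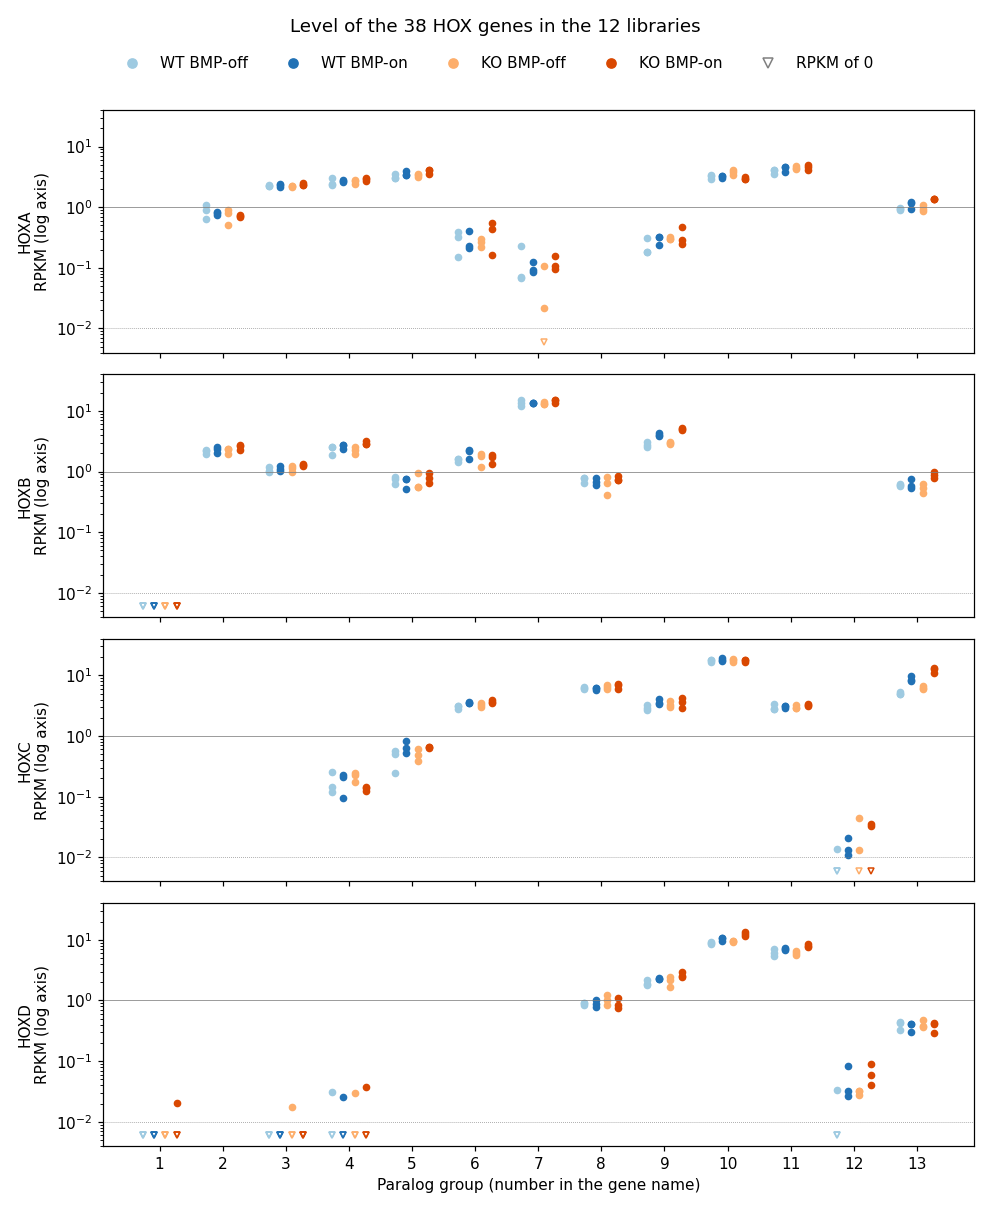
RPKM of each HOX gene in each of the 12 libraries on a log axis, with one panel per cluster and the paralog group on the horizontal axis; colours mark the 4 groups of 3 libraries and open triangles mark an RPKM of 0. HOXC10 and HOXB7 are the highest genes, HOXB1 is at 0 throughout, HOXD1, HOXD3 and HOXD4 are at or near 0, and HOXC13 shows the widest spread between groups among the abundant genes.

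In MIB1 WT cells, removing LDN so that BMP4 could signal raised 2 of the 30 tested HOX genes, HOXC13 and HOXB9, and lowered none at an adjusted p of 0.05. Over all 17188 tested genes, 1.91% rose and 2.01% fell by the same rule. A difference in bulk RNA such as these cannot tell more cells that use a gene from more RNA per cell. Among the 30 members, 24 had a positive log2 fold change and the median was 0.12, against a median of 0.00 and 50.5% positive over all genes. With a correction for GC content the HOX median was 0.088, beside -0.012 over all genes. At an unadjusted p under 0.05 there were 8 HOX genes, all with positive values, beside 15.3% of all genes, and DESeq2 and limma-voom called the same number as edgeR, 2. None passed with a change of 1 or more on the log2 scale in either direction, which 0.425% of all genes did.

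HOXC13, at the 5′ end of the HOXC cluster (GRCh38 chr12:53938831-53946544, plus strand), is known for its part in hair and nail formation. It was counted at 11.4, 11.3 and 12.2 CPM in WT BMP-off, 22.8, 19.2 and 19.6 CPM in WT BMP-on, 14.2, 13.5 and 15.8 CPM in KO BMP-off, and 30.5, 30.9 and 26.0 CPM in KO BMP-on. No 2 of these groups overlapped, and their order was WT BMP-off, KO BMP-off, WT BMP-on, KO BMP-on. The log2 fold change with BMP in WT cells was 0.82 ± 0.094 (SE, n = 3 libraries per group, edgeR quasi-likelihood adjusted p = 6.63e-05).

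HOXB9, a gene of the thoracic region (chr17:48621156-48626358, minus strand), was at 6.29, 6.74 and 7.55 CPM in WT BMP-off and at 9.75, 10.9 and 9.99 CPM in WT BMP-on. In KO cells it was at 6.91, 7.43 and 7.40 CPM in BMP-off and at 13.3, 12.7 and 12.4 CPM in BMP-on. BMP-on exceeded BMP-off without overlap in both backgrounds, while both BMP-off groups overlapped. In WT cells the log2 fold change was 0.58 ± 0.093 (adjusted p = 0.0014).

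In MIB1 KO cells, 7 of the 30 tested HOX genes rose with BMP and 1 fell, while 11.1% of all tested genes rose and 10.9% fell. HOXC13 and HOXB9 were again past the test, with HOXD10, HOXA13, HOXD11, HOXB13 and HOXB4 also higher and HOXA10 lower. The median log2 fold change of the 30 members was 0.21 and 26 were positive, beside a median of 0.01 and 50.9% positive over all genes. With a correction for GC content the HOX median was 0.095, beside -0.012 over all genes. HOXA2, HOXA4, HOXA11, HOXB6 and HOXC10 went from positive to negative values with it. In the HOXB cluster all 9 tested genes had positive values without that correction, from 0.06 to 0.82. With it HOXB6 was at -0.07, and HOXB2 went from 0.24 to 0.09. Of the 14 tested members in paralog groups 9 to 13, 6 rose and 1 fell, and of the 16 in groups 1 to 8, 1 rose. The median log2 fold change was 0.28 in groups 9 to 13, with 12 of 14 positive. In groups 1 to 8 it was 0.20, with 14 of 16 positive. A difference between these 2 sets was not tested. Without KO BMP-off replicate 2, whose GC trend lay at one extreme, 6 HOX genes rose and none fell, and without KO BMP-off replicate 3, at the other extreme, 9 rose and 1 fell. Without KO BMP-on replicate 1, 6 rose and none fell.

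HOXC13 had a log2 fold change of 1.00 ± 0.091 in KO cells (adjusted p = 9.77e-07). It was the only HOX gene past the adjusted p that changed by 1 or more on the log2 scale, which 1.66% of all genes reached. With a correction for GC content it came to 0.82 (adjusted p = 2.66e-08), below that limit. HOXB9 had 0.82 ± 0.091 (adjusted p = 8.34e-06), and 0.70 after the GC correction.

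HOXB13, best known from the prostate and hindgut, lies at the far 5′ end of HOXB and was counted low, at 36 to 86 counts per library. It was at 1.94, 1.96 and 2.09 CPM in WT BMP-off, 1.77, 2.57 and 1.98 CPM in WT BMP-on, 2.06, 1.45 and 1.77 CPM in KO BMP-off and 3.30, 2.93 and 2.68 CPM in KO BMP-on. All KO BMP-on libraries were above the other 9. The response was 0.75 ± 0.17 in KO cells (adjusted p = 0.00572) and 0.09 ± 0.18 in WT cells (adjusted p = 0.863).

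HOXA13, which shapes the digits and the urogenital tract, lies at chr7:27193503-27200091 on the minus strand, the 5′ end of HOXA. It was at 4.46, 4.39 and 4.68 CPM in WT BMP-off, 5.65, 5.85 and 4.60 CPM in WT BMP-on, 4.19, 5.06 and 4.46 CPM in KO BMP-off, and 6.71, 6.58 and 6.64 CPM in KO BMP-on. The KO BMP-on libraries were again the highest of the 12. The response was 0.54 ± 0.12 in KO cells (adjusted p = 0.00303) and 0.25 ± 0.12 in WT cells (adjusted p = 0.323).

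HOXD10, a limb and lumbar gene, was at 16.2, 17.2 and 17.8 CPM in WT BMP-off, 18.6, 20.8 and 20.3 CPM in WT BMP-on, 18.2, 16.7 and 18.2 CPM in KO BMP-off, and 22.6, 26.1 and 23.8 CPM in KO BMP-on. Each BMP-on group lay above its BMP-off group without overlap. The KO response was 0.45 ± 0.077 (adjusted p = 0.00056) and the WT response 0.22 ± 0.078 (adjusted p = 0.139). With the GC correction both were past the threshold, at 0.47 in KO cells (adjusted p = 2.51e-05) and 0.23 in WT cells (adjusted p = 0.0452).

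Its neighbour HOXD11, which acts with HOXA11 in the forearm and kidney, was at 8.84, 10.3 and 7.87 CPM in WT BMP-off, 10.7, 10.5 and 9.95 CPM in WT BMP-on, 8.76, 9.44 and 8.25 CPM in KO BMP-off and 11.5, 11.9 and 12.9 CPM in KO BMP-on. The KO BMP-on libraries were above the other 9, and the response was 0.46 ± 0.10 (adjusted p = 0.00388). HOXD11 has exons of 62.6% GC, and with the GC correction its response was 0.10 (adjusted p = 0.719), so this call was lost. In the GENCODE v44 annotation HOXD10 and HOXD11 share 452 exon bases on the same strand, 18.2% of the HOXD10 exons and 21.4% of those of HOXD11. Reads were counted on RefSeq exons per the study's methods, so whether reads there were shared between both genes is not known.

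HOXD13, at the 5′ end of HOXD beyond HOXD11, did not pass the test. It had 12 to 25 counts per library, and its KO response was -0.07 with a 95% confidence interval from -0.59 to 0.46 (adjusted p = 0.895), an interval that reaches the values of HOXD10 and HOXD11, and the difference from them was not tested.

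For 4 of these genes the sequence in front of the RefSeq transcription start was at hand. It is shown for HOXA13, HOXD10 and HOXD11, which passed the test in KO cells, HOXD11 only without the GC correction. HOXD13, which did not pass, is set beside them. Each window is the 250 bases upstream of the start on GRCh38.p14, read on the gene's strand. Capitals mark GGCGCC and GGAGCC, GC-rich words that SMAD1/5 bind in BMP target genes, found on either strand. None of the 4 windows overlaps a GENCODE exon. The HOXA13 window (chr7:27200092-27200341, minus strand) lies in an intron of HOTTIP, the HOXD10 window (chr2:176116528-176116777, plus strand) and the HOXD11 window (chr2:176107030-176107279, plus strand) lie in introns of longer transcripts of the same genes, and the HOXD13 window (chr2:176092471-176092720, plus strand) is intergenic.
HOXA13: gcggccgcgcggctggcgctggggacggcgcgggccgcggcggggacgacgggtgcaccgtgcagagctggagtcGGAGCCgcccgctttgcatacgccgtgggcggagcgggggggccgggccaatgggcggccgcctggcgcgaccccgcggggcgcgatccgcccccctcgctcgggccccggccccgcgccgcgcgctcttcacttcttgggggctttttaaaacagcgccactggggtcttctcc
HOXD10: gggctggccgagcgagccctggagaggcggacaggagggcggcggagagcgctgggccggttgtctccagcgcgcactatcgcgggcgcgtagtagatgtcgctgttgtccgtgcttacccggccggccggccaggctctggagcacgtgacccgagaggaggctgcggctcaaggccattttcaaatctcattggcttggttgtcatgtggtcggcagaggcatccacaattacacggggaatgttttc
HOXD11: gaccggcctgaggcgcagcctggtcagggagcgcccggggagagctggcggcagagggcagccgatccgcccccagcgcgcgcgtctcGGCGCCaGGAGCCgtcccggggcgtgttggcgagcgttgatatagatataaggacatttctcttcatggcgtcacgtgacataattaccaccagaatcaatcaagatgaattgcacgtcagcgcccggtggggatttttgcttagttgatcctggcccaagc
HOXD13: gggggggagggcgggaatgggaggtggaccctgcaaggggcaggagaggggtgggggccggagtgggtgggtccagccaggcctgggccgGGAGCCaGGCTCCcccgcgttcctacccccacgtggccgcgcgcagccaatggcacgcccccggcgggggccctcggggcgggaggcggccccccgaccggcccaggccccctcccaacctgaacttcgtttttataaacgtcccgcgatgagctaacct
HOXA13 has 1 match, HOXD11 has 1 of each word, HOXD13 has 2 matches to GGAGCC, 1 on each strand, and HOXD10 has none. GGCGCC occurred in 5 of the 20 HOX windows in the RefSeq table and in 16.4% of all 35116 windows, and GGAGCC in 8 of 20 and in 30.6%. The SMAD box CAGAC was in 6 of 20 HOX windows against 38.0% of all, and TATAAA in 4 of 20 against 10.7%. HOXC4 and HOXC5 share 1 window. These matches are descriptions of the letters only. The start regions of HOXC13, HOXB9, HOXB13 and HOXB4 were not analysed here. The window of HOXA10, which fell in KO cells, holds 1 GGAGCC, 15 bases before the start, and 1 TATAAA, and it is not printed because GENCODE exons overlap it.

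HOXB4, known from blood stem cells, was at 6.76, 9.09 and 9.10 CPM in WT BMP-off, 9.96, 9.82 and 8.73 CPM in WT BMP-on, 9.002, 6.91 and 8.25 CPM in KO BMP-off and 10.4, 11.5 and 10.4 CPM in KO BMP-on. Its KO response of 0.41 ± 0.12 (adjusted p = 0.0249) was lost with the GC correction (0.21, adjusted p = 0.141) and without KO BMP-off replicate 2 (0.31, adjusted p = 0.0876) or KO BMP-on replicate 1 (0.43, adjusted p = 0.0504) or 2 (0.36, adjusted p = 0.0901).

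HOXA10, which marks the uterus and acts in the proximal hindlimb, went the other way. It was at 8.66, 9.91 and 10.1 CPM in WT BMP-off, 9.91, 9.96 and 9.23 CPM in WT BMP-on, 10.4, 11.97 and 11.6 CPM in KO BMP-off, and 8.85, 9.56 and 8.97 CPM in KO BMP-on. The KO BMP-off libraries were the highest 3 of the 12. HOXA10 fell by 0.31 ± 0.092 on the log2 scale in KO cells (adjusted p = 0.0239), and the call was lost without KO BMP-off replicate 2 (adjusted p = 0.0785), KO BMP-on replicate 1 (0.0864) or KO BMP-on replicate 3 (0.0612). In GENCODE v44, whose exons are not those counted, the antisense gene HOXA10-AS shares 608 exon bases with HOXA10, 16.4% of its exons. Whether strand was used in counting is not given in the sources used here. HOXA10-AS itself had 1 count in the 12 libraries together, in WT BMP-on replicate 2.

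**Figure D2:**
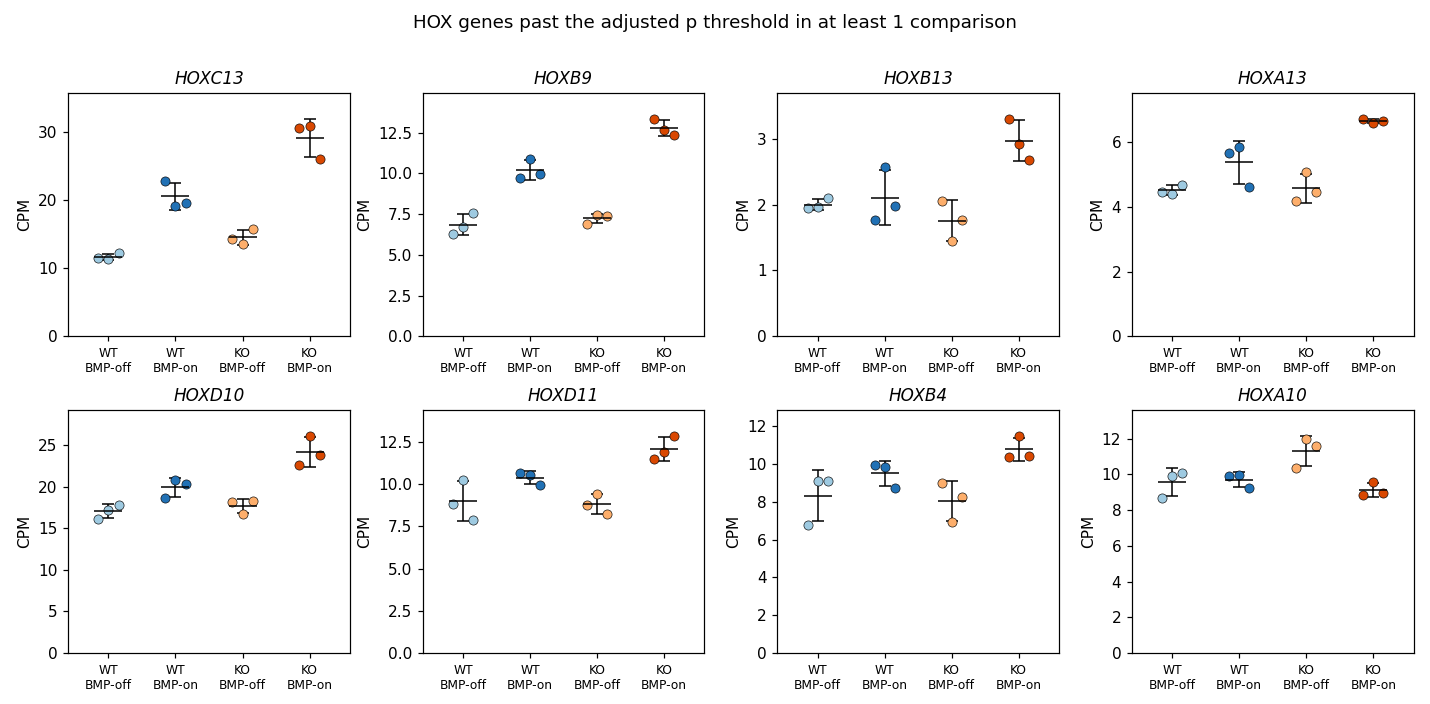
CPM of the 8 HOX genes past an adjusted p of 0.05 in at least 1 comparison, with each point a library, the horizontal mark the mean of 3 libraries and the bars 1 SD, each axis starting at 0. The KO BMP-on libraries are the highest for HOXC13, HOXB9, HOXB13, HOXA13, HOXD10, HOXD11 and HOXB4, and for HOXA10 the KO BMP-off libraries are the highest.

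The summed levels followed these genes. Paralog group 13, of which HOXC13 is the main part, had a sum of 6.97 ± 0.28 RPKM (SD, n = 3) in WT BMP-off, 10.9 ± 0.87 in WT BMP-on, 8.23 ± 0.30 in KO BMP-off and 14.99 ± 1.18 in KO BMP-on, with no overlap between groups. Group 9 went from 7.92 ± 0.19 to 10.4 ± 0.23 RPKM in WT cells and from 8.69 ± 0.82 to 11.7 ± 0.35 RPKM in KO cells. Group 8 was at 7.88 ± 0.15 and 7.61 ± 0.15 RPKM in WT BMP-off and BMP-on and at 8.06 ± 0.40 and 8.38 ± 0.76 RPKM in KO BMP-off and BMP-on, with BMP-on below BMP-off without overlap in WT cells and overlapping groups in KO cells. Mean whole-cluster sums follow in the order WT BMP-off, WT BMP-on, KO BMP-off and KO BMP-on. They were 38.3, 44.1, 40.8 and 48.0 RPKM for HOXC and 25.7, 27.8, 25.35 and 30.6 RPKM for HOXB. For HOXA they were 17.6, 18.7, 18.8 and 19.6 RPKM, and for HOXD 18.4, 21.0, 19.1 and 24.6 RPKM. These sums are descriptions with no test.

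With BMP-on, KO cells had a higher level of 1 of the 30 HOX genes than WT cells, HOXC13, and lower levels of none, beside 1.32% of all genes higher and 2.34% lower. HOXC13 was higher by 0.51 ± 0.088 on the log2 scale (adjusted p = 0.003). The count was 3 without KO BMP-off replicate 2 and 2 without KO BMP-off replicate 3. HOXB9 (0.33 ± 0.088, adjusted p = 0.0521) and HOXD10 (0.28 ± 0.076, adjusted p = 0.0572) were above WT in all 3 KO libraries without passing, and with the GC correction both were past the threshold (adjusted p = 0.0289 and 0.0152). At an unadjusted p under 0.05 there were 6 HOX genes, all higher in KO cells, beside 13.8% of all genes, and DESeq2 called 2 HOX genes. No HOX gene passed with a change of 1 or more on the log2 scale, which 0.14% of all genes did.

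With BMP-off, no HOX gene differed between KO and WT cells by edgeR, beside 0.0407% of all genes by the adjusted p and 0.0116% with both limits. At an unadjusted p under 0.05 there were 2 HOX genes, a share of 6.67% below the 10.2% of all genes: HOXC13 at 0.32 ± 0.096 (adjusted p = 0.354) and HOXA10 at 0.25 ± 0.091 (adjusted p = 0.408), and DESeq2 and limma-voom also called 0. With the GC correction HOXC13 came to 0.40 and passed (adjusted p = 0.0349). The 95% confidence interval lay between -1 and 1 on the log2 scale for 28 of the 30 members in this comparison and for 29 in the comparison with BMP-on.

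**Figure D3:**
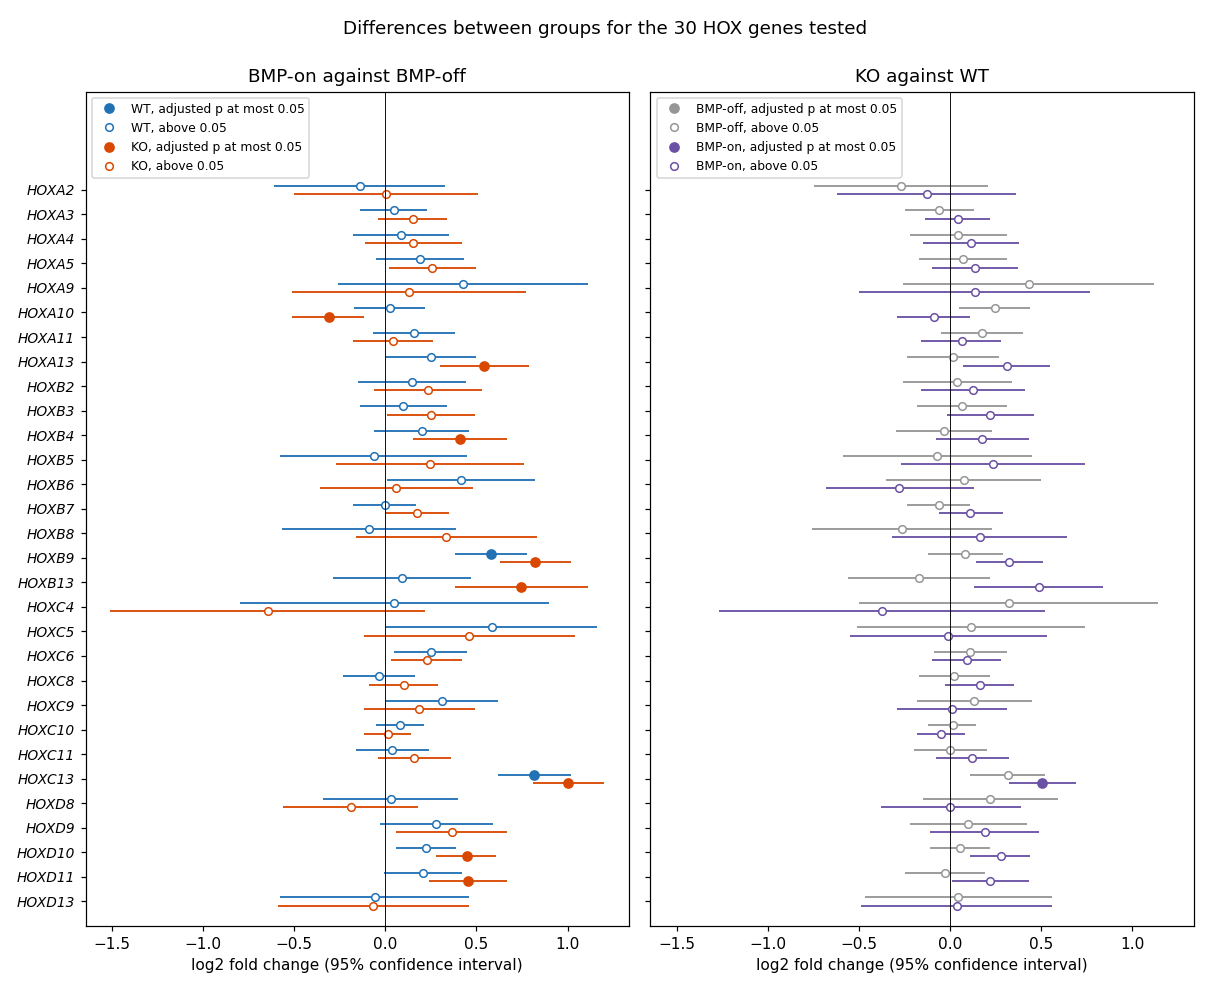
Log2 fold changes of the 30 tested HOX genes with 95% confidence intervals, BMP-on against BMP-off on the left and KO against WT on the right; filled points have an adjusted p of at most 0.05. HOXC13 and HOXB9 are filled in both BMP responses, HOXA10 is the only filled point to the left of 0, and on the right only HOXC13 with BMP-on is filled.

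The difference between both BMP responses was tested itself, as an interaction. No HOX gene passed, beside 0.0931% of all genes by the adjusted p and 0% with a difference of 1 or more on the log2 scale as well, and DESeq2 and limma-voom also called 0. At an unadjusted p under 0.05 there were 2 HOX genes, also 6.67%, beside 10.6% of all genes: HOXB13 at 0.66 (95% confidence interval 0.13 to 1.18, adjusted p = 0.356) and HOXA10 at -0.34 (-0.61 to -0.06, adjusted p = 0.37). For HOXC13 the response was 0.19 larger in KO cells with an interval from -0.09 to 0.46, and for HOXB9 0.24 larger with an interval from -0.03 to 0.52. The larger number of HOX genes past the test in KO than in WT cells is therefore not shown to be a difference between the responses.

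The clusters also hold noncoding RNA genes. A list of such neighbours had 20 genes in the table, among them PRAC1 and PRAC2, which are annotated as protein-coding and were too low to test, and 14 of the 20 passed the filter on counts. In WT cells 1 of the 14 rose with BMP, beside 1.91% of all genes, in KO cells 3 rose, beside 11.1%, and none fell. The other 3 comparisons called none. With the GC correction HOTTIP (1.32, adjusted p = 0.0297) and HOXC13-AS (0.70, adjusted p = 0.0202) were past the threshold for KO against WT with BMP-on, where without it they had adjusted p = 0.0534 and 0.0509. The median log2 fold change was 0.28 in WT and 0.22 in KO cells.

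In GENCODE v44, HOXC13-AS starts 812 bases from the HOXC13 start on the opposite strand and shares 172 exon bases with it, 7.3% of the HOXC13 exons. It was at 0.755, 0.870 and 1.05 CPM in WT BMP-off, 2.32, 1.68 and 1.98 in WT BMP-on, 0.628, 0.844 and 1.22 in KO BMP-off and 2.68, 4.02 and 3.26 in KO BMP-on. BMP-on was above BMP-off without overlap in both backgrounds. The log2 fold change was 1.16 ± 0.25 in WT cells (adjusted p = 0.0115) and 1.89 ± 0.23 in KO cells (adjusted p = 2.13e-05). The WT call was lost without WT BMP-off replicate 1 (adjusted p = 0.0518) or 2 (0.0515) or WT BMP-on replicate 1 (0.0595).

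HOTTIP, the noncoding RNA that starts 1516 bases from HOXA13 on the opposite strand and is known to help keep 5′ HOXA genes active, had only 3 to 18 counts per library. It was at 0.395, 0.174 and 0.227 CPM in WT BMP-off, 0.295, 0.205 and 0.323 in WT BMP-on, 0.209, 0.362 and 0.126 in KO BMP-off and 0.613, 0.784 and 0.699 in KO BMP-on. The KO BMP-on libraries were above all others, as for HOXA13, with a KO response of 1.55 ± 0.38 (adjusted p = 0.00784) and a WT response of -0.01 ± 0.43 (adjusted p = 0.998), while the interaction did not pass (1.56, adjusted p = 0.356). HOTTIP shares 86 exon bases with HOXA13 in GENCODE v44.

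HOXB-AS4, whose start is 2317 bases from that of HOXB9, was at 0.862, 0.956 and 1.05 CPM in WT BMP-off, 1.48, 1.37 and 1.26 in WT BMP-on, 0.872, 1.00 and 0.926 in KO BMP-off and 1.57, 1.31 and 1.44 in KO BMP-on. BMP-on was above BMP-off in both backgrounds, at 0.63 ± 0.19 in KO cells (adjusted p = 0.0227) and 0.52 ± 0.19 in WT cells (adjusted p = 0.182). The KO call was lost under 9 of 25 alternatives. These included DESeq2 (adjusted p = 0.108), limma-voom after quantile normalization (0.0588) and the GC correction (0.0502). It was also lost without KO BMP-off replicate 1 (0.0919) or KO BMP-on replicate 1 (0.121) or 3 (0.0554). HOTAIR, the antisense RNA next to HOXC11, had 0.28 ± 0.18 in KO cells (adjusted p = 0.269).

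**Figure D4:**
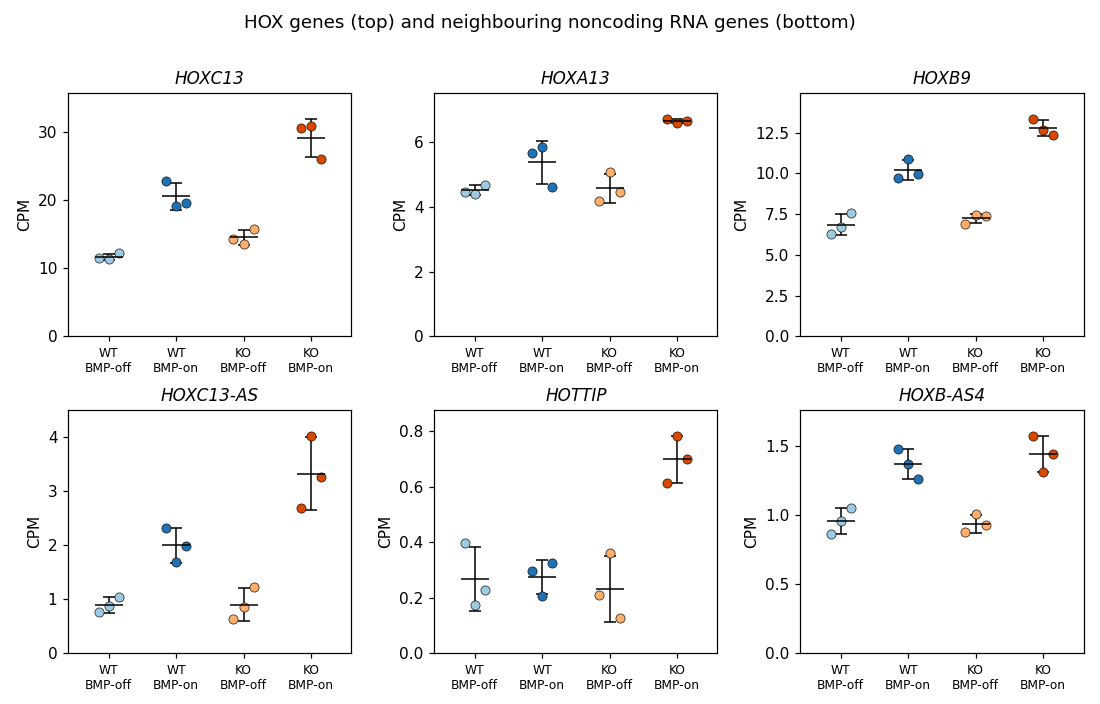
CPM of HOXC13, HOXA13 and HOXB9 in the top row and of HOXC13-AS, HOTTIP and HOXB-AS4 in the bottom row, with each point a library, the horizontal mark the mean of 3 libraries and the bars 1 SD. HOXC13-AS and HOXB-AS4 are higher with BMP-on in both backgrounds, and HOTTIP is highest in the KO BMP-on libraries.

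Of the proteins that act on or with HOX genes, those of the Polycomb complexes, which keep HOX genes silent, were all tested. Of 33, 1 fell in WT cells (RBBP7, -0.23 ± 0.044, adjusted p = 0.00467), and in KO cells 9 fell and 2 rose. The largest changes in KO cells were those of the PRC1 member CBX8, at 0.55 ± 0.13 (adjusted p = 0.00867), the histone-binding subunit RBBP7, at -0.34 ± 0.044 (adjusted p = 3.77e-05), and the H3K27 methyltransferase EZH2, at -0.34 ± 0.054 (adjusted p = 0.000317). The WT count of 1 was 6 with the GC correction, 3 without KO BMP-off replicate 2 and 2 without KO BMP-off replicate 3. The count of 11 in KO cells was 6 without KO BMP-off replicate 1. In KO cells, shares of 9 and 2 in 33 stand beside 10.9% of all genes that fell and 11.1% that rose. In WT cells, 2.01% of all genes fell.

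Of 25 Trithorax and MLL genes, which keep HOX genes active, 1 rose in WT cells, beside 1.91% of all genes. This was MLLT3 (0.57 ± 0.14, adjusted p = 0.0339, lost without any of 4 WT libraries). In KO cells 5 rose and 3 fell, beside 11.1% and 10.9% of all genes. The largest changes in KO cells were in KDM6B, which removes the Polycomb mark (0.75 ± 0.13, adjusted p = 0.000787), and in the MLL partners MLLT1 (0.62 ± 0.14, adjusted p = 0.0112) and MLLT3 (0.57 ± 0.14, adjusted p = 0.0083). The WT count of 1 was 5 with only the groups compared, 4 without KO BMP-off replicate 2 and 3 without KO BMP-off replicate 3. The count of 8 was 5 without KO BMP-off replicate 1 or without KO BMP-on replicate 1.

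Retinoic acid and the CDX factors set HOX genes in the embryo, and 11 of 20 listed genes were tested. DHRS3, a retinaldehyde reductase, rose in WT (0.51 ± 0.096, adjusted p = 0.00469) and in KO cells (0.97 ± 0.097, adjusted p = 2.62e-06), and RXRA, a partner of the retinoic acid receptors, rose in KO cells (0.71 ± 0.15, adjusted p = 0.00421). No other gene of the list passed. Over all genes, 1.91% rose in WT cells, and in KO cells 11.1% rose and 10.9% fell. The KO count of 2 in this list was 6 when KO BMP-off replicate 3 was left out. Of 8 tested PBX and MEIS cofactors, which bind DNA together with HOX proteins, PBX3 fell in KO cells (-0.27 ± 0.064, adjusted p = 0.00701), beside 10.9% of all genes. None passed in WT cells, and 3 passed in KO cells when KO BMP-off replicate 3 was left out. No gene of these 4 lists passed in the KO against WT comparisons or in the interaction.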

How the data were processed

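RNA-seq was read as 50-base single ends from 12 libraries, 3 per group. Per the study's methods, the authors first set aside ribosomal reads, then used GSNAP with GRCh38, allowing 2 mismatches per 50 bases, and counted reads on RefSeq exons with HTSeqGenie. Each library was made with either of a pair of kits, and which one is not given in the sources used here. The deposited tables hold raw read counts per gene and the authors' normalised RPKM. Gene symbols came from GENCODE v44 by Ensembl ID and matched 57532 of 58302 rows. Gene positions and shared exon bases also came from GENCODE v44, whose exons can differ from the RefSeq exons counted. The symbol rule found 39 HOX genes, of which 1 is not reported here and stays in the fits only. The members and gene lists were chosen with earlier results of these data known.

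Counts were tested with edgeR 4.0.16 in R 4.3.3 (TMM scaling, filterByExpr, robust quasi-likelihood F test, all 12 libraries in a group-means model), with Benjamini-Hochberg adjustment over the 17188 genes tested within each of 5 comparisons. A gene passed at an adjusted p of 0.05, and a second limit of 1 on the size of the log2 fold change was applied where stated. Tests are two-sided. CPM values use the TMM library sizes and compare a gene between libraries, and RPKM compares genes with each other. RPKM was used as deposited, and its log2 with a pseudocount of 1 or 0.1 was fitted with limma 3.58.1 as an alternative, as were DESeq2 1.42.0, limma-voom after quantile normalization (the study's test), other scalings and filters, a loess correction for GC content, a replicate block and leaving out each library. Values in every library are given for members past the adjusted p in any comparison and for the 3 most abundant members of each cluster. For the other gene lists, values are given for at most 3 genes a list and comparison, those past the adjusted p with the largest absolute log2 fold change. Promoter windows and motifs came from the RefSeq table, which matched 20 of the 38 members. Within groups the counts of replicates differed by more than sampling noise. In simulated counts for the response of KO cells to BMP (17019 genes), edgeR found 94% of 1.5-fold and 98% of 2-fold changes, and for the interaction 72% and 96%. Only genes above a minimum mean count were changed in the simulation, and no GC trend was put in. These shares therefore do not cover low-count HOX genes or changes below 1.5-fold.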

Additional observations from a re-analysis of the deposited data

How the results depend on the processing

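None of the HOX calls, and none of the noncoding, list and flanking genes past the adjusted p, changed direction under the alternatives run. In WT cells the count of HOX genes past the adjusted p with BMP was 2 under 24 of 25 alternatives and 3 with the GC correction, where HOXD10 also passed. In KO cells it ranged from 6 to 10, and HOXC13, HOXB9, HOXB13 and HOXD10 kept the call under all 25. For KO against WT with BMP-on, the count of 1 became 2 with DESeq2 and with at least 10 counts in every library, and 3 with library size scaling, with only the groups compared, with the GC correction, and with the replicate block and GC correction together. Leaving out single libraries gave 1 to 3, where only HOXC13 kept the call throughout. With BMP-off the count of 0 became 1 with the GC correction, with or without the replicate block (HOXC13, 0.40, adjusted p = 0.0349 without the block and 0.0405 with it). In the KO response, HOXD11 dropped to 0.11 (adjusted p = 0.647) and HOXB4 to 0.21 (adjusted p = 0.158) with block and GC correction together. The cause of these shifts was not tested. HOXA13 missed the threshold with log2(RPKM + 1) and no filter (adjusted p = 0.0516). Same-numbered libraries deviated together in 2 of 18 pairs (correlation above 0.1), so the numbers were not taken to pair them, and the block, which left the 5 counts of HOX genes at 2, 8, 1, 0 and 0, changed no HOX call. Depth limits the 8 untested members and genes such as HOXC4, with 6 to 14 counts per library. In the KO response 25 of 30 members had a 95% confidence interval within -1 to 1.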

Other observations

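The protein-coding genes nearest to each cluster that were high enough to test were looked at after the HOX values were known. In the BMP response of KO cells, 22% of all tested genes passed in either direction. Both neighbours of HOXC were among them and rose, and a link to the HOX genes was not tested. CALCOCO1, 211.1 kb from the cluster on the side of lower coordinates, rose by 0.49 ± 0.071 on the log2 scale (adjusted p = 0.000126), and SMUG1, a DNA repair glycosylase 65.3 kb away on the other side, rose by 0.25 ± 0.062 (adjusted p = 0.00803, rising to 0.0576 when KO BMP-on replicate 1 was left out). In WT cells their values were 0.22 ± 0.071 (adjusted p = 0.102) and 0.06 ± 0.061 (adjusted p = 0.713). Next to HOXD, LNPK fell by 0.24 ± 0.053 (adjusted p = 0.00409) in KO cells while MTX2 was at 0.00 ± 0.052 (adjusted p = 0.986). SKAP2 and HIBADH beside HOXA and SNX11 and CALCOCO2 beside HOXB passed in no comparison, with KO responses between -0.06 and 0.00 on the log2 scale.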
